A study of Mus musculus with 6 samples.

Results

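Macrophage and other leukocyte genes were followed in E18.5 hearts of WT embryos and of embryos without *Pkm1* (*Pkm1*-KO), as a measure of the immune cells in this tissue. A list of 38 such genes was taken by name from a table of read counts per gene symbol, in which 30 of them have a row out of 13809 rows in all. All 30 passed the filter on low counts and were compared between the genotypes. The remaining 8, *Cd163*, *Timd4*, *Trem2*, *Cd52*, *Aif1*, *Ccr2*, *H2-Aa* and *Ms4a7*, have no row in that table, so their levels were not analysed here. Every row of the table holds at least 59 counts over the 6 libraries. Each genotype is represented by 3 libraries of total RNA depleted of ribosomal RNA, named by letter (WT a, WT b, WT c and likewise for KO) because the columns give nothing beyond the genotype. The KO embryos are homozygous for a CRISPR/Cas9 deletion in the *Pkm* exon that is specific to *Pkm1*. The founders were zygotes of BDF1 mice, a cross of C57BL/6J with DBA/2, and the deletion is present in every cell of the embryo, leukocytes included. The study names the tissue as ventricle and the sample labels as heart.

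Macrophages settle in the heart during fetal life and persist there as resident cells that clear dying cells and debris. Their identity rests on the transcription factor PU.1 and on the growth factor receptor CSF1R, and they carry the leukocyte phosphatase CD45, encoded by *Ptprc*. Scavenger receptors, complement C1q, Fc receptors and lysosomal proteases are typical products of these cells. In RNA from a whole tissue, fewer cells of a type and less RNA per cell cannot be told apart.

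Library totals ranged from 15567624 to 19875546 counts, and 3 counts, taken as the limit of detection, corresponded to 0.151 to 0.193 CPM, counts scaled to the library total. Levels below are CPM with TMM scaling factors applied. *Pkm*, the targeted gene, was at 1318 ± 41.1 CPM in the WT libraries and 542 ± 10.1 CPM in the KO libraries (SD, n = 3). The cardiomyocyte genes of the tissue check, such as *Myh6* and *Tnnt2*, were abundant in every library, with WT means of 95.05 to 19536 CPM over the 8 genes of that list. WT c stood apart from WT a and WT b, with a chi-square of 3.76 and 3.24 per degree of freedom over genes, against 1.56 to 1.88 in the other pairs of libraries of a genotype. Every WT library had transcripts of the 4 Y-linked genes examined and every KO library had 0 counts of them, so sex and genotype cannot be told apart for any gene below.

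Of the 30 genes, 4 were lower in KO hearts and 0 were higher at an adjusted p under 0.05. The p-values are those of the quasi-likelihood test in edgeR unless another tool is named, adjusted by Benjamini-Hochberg over the 13804 genes that were tested. The lowered genes were *Cd14*, *C1qa*, *C1qc* and *Ctss*. Lower calls made up 13.3% of these genes and 15.7% of all genes tested. Higher calls made up 14.6% of all genes tested, and calls in either direction 30.3%. DESeq2 and limma's voom also gave 0 higher genes, and edgeR's exact test gave 1, *Mrc1*. Among the 6416 genes with a mean level inside the range of these genes (0.903 to 20.8 CPM), 10.1% were called lower and 14.9% higher. Before adjustment, 10 of the 30 genes, in both directions together, had a p under 0.05 (33.3%), against 40.7% of all genes tested. The WT and KO libraries did not overlap for 8 of the 30 genes (26.7%), 7 lower and 1 higher in KO, where 42.4% of all genes tested did not overlap, 21.4% lower and 21.0% higher. The fitted log2 fold changes had a median of -0.11, with 17 genes below 0 and 13 above, and the median of all genes tested was 0.00.

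**Figure D1:**
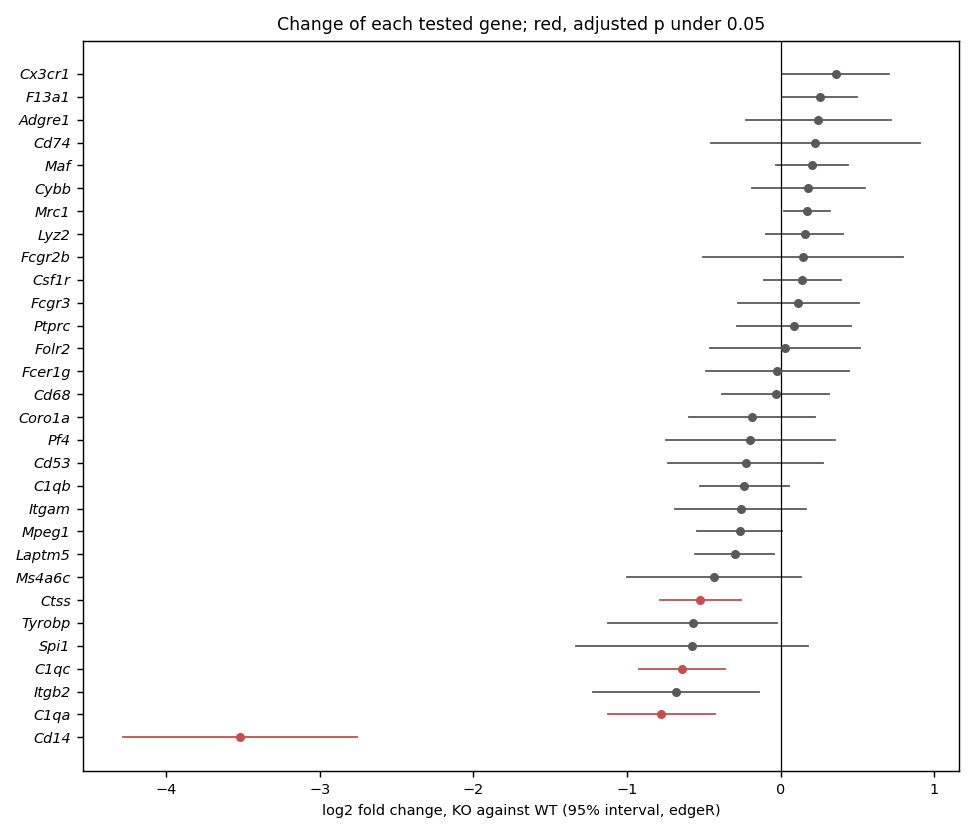
Log2 fold change of KO against WT hearts for each of the 30 tested genes, with the 95% interval from edgeR's quasi-likelihood fit (horizontal axis, log2 units). Red marks the 4 genes with an adjusted p under 0.05. *Cd14* lies near -3.5, while the other 29 genes lie between -0.78 and 0.36.

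The summed level of the 30 genes was 140, 144 and 141 CPM in the WT libraries and 129, 140 and 135 CPM in the KO libraries. The highest KO library lay within the range of the WT libraries, and the mean of KO was 0.953 of the mean of WT. Per kilobase of annotated exon, the ratio of the summed levels was lower, at -0.21 on the log2 scale against -0.07 for the plain sum. Genes with fewer bases of annotated exon carry more weight when each gene is divided by its length. Among them are the lowered *C1qa* (1040 bases) and *Ctss* (1358), and also *Lyz2* (1316), which was not lowered. The part of single genes in this difference was not tested.

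**Figure D2:**
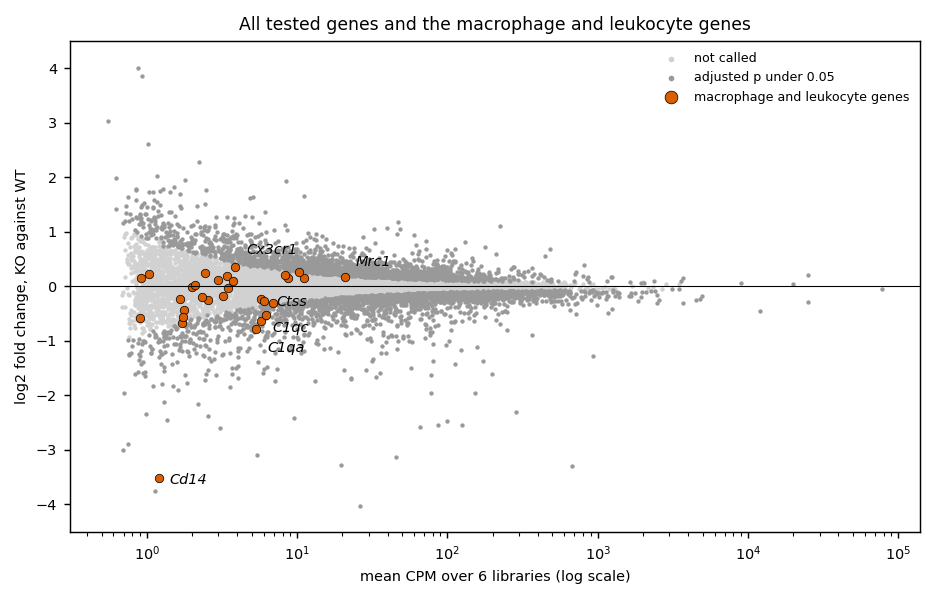
Log2 fold change (vertical axis) against mean CPM over the 6 libraries (horizontal axis, log scale) for the genes tested, with dark grey for an adjusted p under 0.05. The macrophage and leukocyte genes, in orange, have means between 0.903 and 20.8 CPM. The vertical axis ends at 4.5 in each direction, which leaves out 7 genes.

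Levels between genes were compared as CPM per kilobase of exon. In WT hearts the means of *C1qa* (6.51), *Lyz2* (6.25), *C1qb* (5.77) and *Ctss* (5.37) were close together, followed by *C1qc* (3.65). *C1qa* was at 5.23, 5.84 and 8.47 and *Lyz2* at 5.77, 6.94 and 6.04 in WT a, b and c, so that *C1qa* led in WT c alone and *Lyz2* led in the other two. Without WT c the means were 6.35 for *Lyz2* and 5.54 for *C1qa*. The lowest were *Fcgr2b* (0.150) and *Ptprc* (0.196). In KO hearts the mean of *Lyz2* was ahead, at 7.03, before *C1qb* (4.86), *C1qa* (3.78) and *Ctss* (3.73). *Ptprc* has 18313 bases of annotated exon, the longest of the 30 genes, so its value per kilobase is low for a gene at 3.59 CPM in WT hearts.

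**Figure D3:**
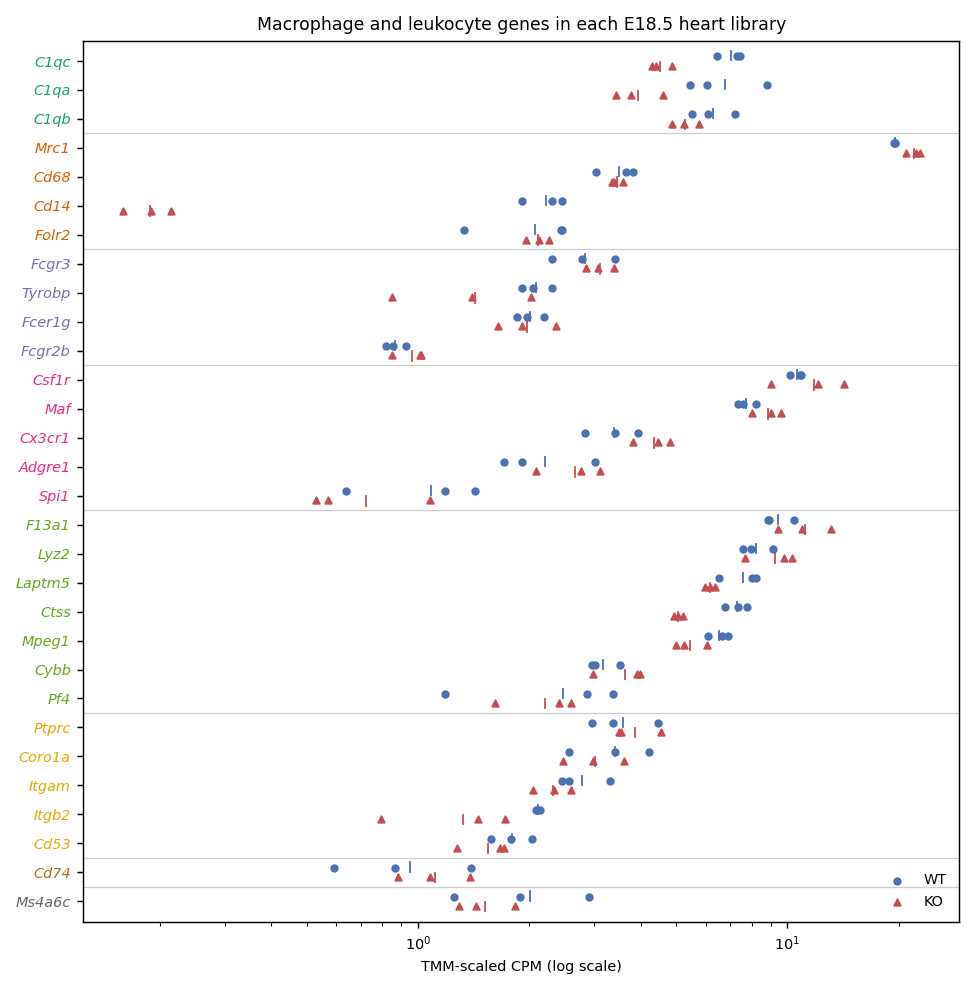
TMM-scaled CPM (horizontal axis, log scale) of the 30 genes in each of the 3 WT libraries (blue circles) and 3 KO libraries (red triangles), with short vertical bars at the means. Gene names are coloured by role group and grey lines part the groups. The KO libraries of *Cd14* lie between 0.159 and 0.215 CPM, and those of *C1qa*, *C1qc* and *Ctss* lie to the left of every WT library.

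Complement C1q, which tags dying cells and microbes for uptake, is assembled from 3 chains encoded by neighbouring genes on the minus strand of chromosome 4 in GRCm38. *C1qb* spans 136880129 to 136886187, *C1qc* 136889804 to 136893065 and *C1qa* 136895917 to 136898803. *C1qa* was at 5.44, 6.07 and 8.80 CPM in the WT libraries and 3.76, 4.61 and 3.43 CPM in the KO libraries. All KO libraries were below all WT libraries, and WT c was the highest. This amounts to -0.78 on the log2 scale, with a standard error of 0.170 and an adjusted p of 0.000985 (edgeR), and to -0.56 without WT c, at an adjusted p of 0.00625. *C1qc* was at 7.30, 6.43 and 7.42 CPM in the WT libraries and 4.29, 4.86 and 4.40 CPM in the KO libraries, again without overlap. It fell by 0.64 on the log2 scale (standard error 0.136, adjusted p = 0.000706, edgeR). *C1qb* was at 6.08, 5.51 and 7.23 CPM in the WT libraries and 4.87, 5.24 and 5.74 CPM in the KO libraries, and the groups overlapped. Its log2 fold change of -0.24 did not pass the test, with a 95% interval from -0.52 to 0.05. The summed level of the 3 chains was 20.1 ± 2.94 CPM in the WT libraries and 13.7 ± 0.90 CPM in the KO libraries (SD, n = 3).

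Ratios between genes of a library were also compared, for 5 pairs chosen after their values were seen. The ratio of *C1qa* to *C1qb* was 0.895, 1.10 and 1.22 in the WT libraries and 0.772, 0.880 and 0.598 in the KO libraries, a mean difference of -0.52 on the log2 scale. The ratio of *C1qc* to *C1qb* was 1.20, 1.17 and 1.03 in WT and 0.880, 0.928 and 0.766 in KO, a mean difference of -0.40. In both ratios the KO libraries lay below the WT libraries. The two-sided exact permutation test over libraries gave p = 0.1 for each, also after Benjamini-Hochberg adjustment over the 5 pairs, the smallest value that 3 libraries against 3 can give, so it cannot pass a threshold of 0.05.

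The promoters of *C1qb*, *C1qc* and *Ctss* are shown because *C1qc* and *Ctss* were lower while *C1qb*, the neighbour of *C1qc*, did not pass the test. They are RefSeq sequences of GRCm38.p6, from 250 bases before to 50 bases after the annotated start, written 5′ to 3′ on the strand of the gene. The lowered *C1qa* and *Cd14* matched no promoter of this source and are not shown. Capitals mark GAGGAA or its reverse complement TTCCTC, the core that PU.1 binds in many myeloid genes. The windows are chr4:136886151-136886450 on the minus strand for *C1qb*, chr4:136892865-136893164 on the minus strand for *C1qc* and chr3:95526536-95526835 on the plus strand for *Ctss*.
C1qb: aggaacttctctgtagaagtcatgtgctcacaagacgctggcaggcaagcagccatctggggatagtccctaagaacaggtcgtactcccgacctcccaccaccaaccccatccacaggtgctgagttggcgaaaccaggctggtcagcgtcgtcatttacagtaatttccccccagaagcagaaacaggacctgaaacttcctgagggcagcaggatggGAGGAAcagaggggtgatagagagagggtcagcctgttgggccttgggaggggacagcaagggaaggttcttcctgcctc
C1qc: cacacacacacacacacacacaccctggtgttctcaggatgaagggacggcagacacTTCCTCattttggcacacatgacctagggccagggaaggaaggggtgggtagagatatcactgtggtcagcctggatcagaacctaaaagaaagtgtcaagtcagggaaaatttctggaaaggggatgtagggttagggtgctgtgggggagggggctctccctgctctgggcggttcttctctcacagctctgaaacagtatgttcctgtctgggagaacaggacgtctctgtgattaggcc
Ctss: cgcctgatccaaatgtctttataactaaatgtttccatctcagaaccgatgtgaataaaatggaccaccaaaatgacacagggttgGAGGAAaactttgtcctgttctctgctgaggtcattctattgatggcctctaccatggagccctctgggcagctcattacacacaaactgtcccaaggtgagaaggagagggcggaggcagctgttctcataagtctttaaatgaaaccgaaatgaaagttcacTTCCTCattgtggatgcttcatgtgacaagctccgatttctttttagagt
These letters occurred 1 time each in the windows of *C1qb* and *C1qc* and 2 times in that of *Ctss*. Of the 38 listed genes, 28 matched a promoter of the RefSeq table, and 16 of these (57.1%) held GAGGAA on either strand in at least 1 window. Of all 27025 genes with such a window, 31.3% held it, and 28.3% of the 32851 windows. The uncalled *Mrc1* and *Itgam* had 3 occurrences each, the most among these genes. A match of letters is a description of the sequence and not a measured binding site.

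Among the scavenger and uptake receptors, *Cd14* changed most. CD14 is a co-receptor that hands bacterial lipopolysaccharide to TLR4 and is best known from monocytes and macrophages. It had 33, 48 and 35 counts in the WT libraries and 3, 3 and 4 counts in the KO libraries. The KO libraries were thus at or next to the limit of detection, at 0.159, 0.189 and 0.215 CPM, while the WT libraries were at 1.91, 2.45 and 2.30 CPM. This is a log2 fold change of -3.52, with a standard error of 0.370 and an adjusted p of 3.31e-08 (edgeR). From the summed counts, 116 in WT and 10 in KO, the level in WT was 11.9 times that in KO, with an exact 95% counting interval from 6.23 to 25.4. Counting intervals cover counting error only.

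*Mrc1*, the mannose receptor of resident macrophages, had 298 to 421 counts per library, among the best measured of the 30 genes. It was at 19.5, 19.4 and 19.6 CPM in the WT libraries and 22.3, 22.8 and 20.9 CPM in the KO libraries, so every KO library was above every WT library. The log2 fold change of 0.17 (95% interval 0.02 to 0.32) did not pass the threshold (adjusted p = 0.0747, edgeR), and passed in 1 of 14 alternative settings, edgeR's exact test (adjusted p = 0.0482), against 0.196 under DESeq2 and 0.201 without KO b. *Cd68*, a lysosomal glycoprotein used to stain macrophages, was at 3.50 ± 0.423 CPM in the WT libraries and 3.44 ± 0.133 CPM in the KO libraries (SD, n = 3). *Folr2*, a folate receptor of resident macrophages, was at 2.07 ± 0.640 and 2.11 ± 0.148 CPM (SD, n = 3). The groups overlapped for *Cd68* and *Folr2*, whose 95% intervals of the log2 fold change reached from -0.38 to 0.32 and from -0.46 to 0.52.

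None of the 5 genes of lineage identity passed the test. A fold change above 0 was found for 4 of them, and for 6951 of the 13804 genes tested. *Csf1r*, the receptor through which macrophages receive their survival signal, was at 10.1, 10.9 and 10.8 CPM in the WT libraries and 12.1, 14.3 and 9.02 CPM in the KO libraries. KO c was the lowest and KO b the highest of the 6 libraries, and the 95% interval of the log2 fold change of 0.14 reached from -0.11 to 0.39. *Cx3cr1*, the fractalkine receptor of fetal-derived macrophages, was at 2.84, 3.42 and 3.94 CPM in the WT libraries and 3.82, 4.80 and 4.45 CPM in the KO libraries. Its groups overlapped by KO a alone, and its log2 fold change was 0.36 (adjusted p = 0.113, edgeR). *Adgre1*, which encodes F4/80, was at 1.91, 3.01 and 1.71 CPM in the WT libraries and 2.76, 2.08 and 3.11 CPM in the KO libraries. *Maf*, a factor of macrophage maturation that other cells also express, was at 7.72 ± 0.444 CPM in the WT libraries and 8.88 ± 0.801 CPM in the KO libraries (SD, n = 3). *Spi1*, the gene of PU.1, had 9 to 28 counts per library and a log2 fold change of -0.58, with a 95% interval from -1.33 to 0.18. The summed level of the 5 genes was 25.0 ± 1.92 CPM in the WT libraries and 28.4 ± 1.25 CPM in the KO libraries (SD, n = 3), without overlap between the libraries. Each of the 5 genes overlapped by itself, and 42.4% of all genes tested did not overlap.

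The other 3 pairs set the lowered genes against *Csf1r*. The ratio of *C1qa* to *Csf1r* was 0.537, 0.559 and 0.812 in WT and 0.311, 0.323 and 0.381 in KO hearts. The mean differences on the log2 scale were -0.89 for *C1qa*, -0.77 for *C1qc* and -0.65 for *Ctss* relative to *Csf1r*, without overlap between the groups. Each had p = 0.1 in the two-sided exact permutation test, the smallest value this design can give. *C1qa*, *C1qc* and *Ctss* were already without overlap by themselves, so the separation of these ratios is no further support. The summed level of the C1q chains was 0.669 to 0.937 of that of the lineage genes in WT and 0.459 to 0.498 in KO libraries. A ratio within a library does not show that either of its genes stayed the same.

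Of the 7 genes of lysosomal and secreted effectors, *Ctss* fell and the other 6 did not pass the test. Cathepsin S, the protease it encodes, trims the invariant chain during antigen presentation. *Ctss*, on the plus strand of chromosome 3 from 95526786 to 95556403, was at 7.36, 6.79 and 7.75 CPM in the WT libraries and 4.93, 5.05 and 5.21 CPM in the KO libraries. The KO libraries lay close together below all WT libraries, and *Ctss* fell by 0.52 on the log2 scale (standard error 0.129, adjusted p = 0.00294, edgeR). *Laptm5*, a lysosomal membrane protein of blood cells, was at 7.59 ± 0.913 CPM in the WT libraries and 6.18 ± 0.195 CPM in the KO libraries (SD, n = 3). *Mpeg1*, a pore-forming protein of phagocytes, was at 6.55 ± 0.398 and 5.43 ± 0.562 CPM (SD, n = 3). The libraries of the 2 genotypes did not overlap for *Laptm5* and *Mpeg1*, and the adjusted p-values were 0.0745 and 0.133 (edgeR). *Laptm5* passed in 1 of 14 alternative settings, without WT a (adjusted p = 0.0277), while without WT b the adjusted p was 0.253 and under DESeq2 0.193.

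*Lyz2*, the lysozyme of myeloid cells, was at 7.59, 9.13 and 7.95 CPM in the WT libraries and 7.68, 10.3 and 9.77 CPM in the KO libraries. The groups overlapped, with a 95% interval of the log2 fold change from -0.09 to 0.41. Reads of *Lyz2* can be shared with the closely related *Lyz1*, so its value is uncertain. *F13a1*, the transglutaminase chain of coagulation factor XIII that macrophages and platelets make, was at 8.86, 8.93 and 10.4 CPM in the WT libraries and 9.43, 10.9 and 13.1 CPM in the KO libraries. Its log2 fold change was 0.25 (adjusted p = 0.103, edgeR). With 1 library left out it ranged from 0.11 without KO c (adjusted p = 0.553) to 0.37 without KO a (adjusted p = 0.0333), and it passed in 1 further case, without WT c (adjusted p = 0.0286). *Cybb*, the oxidase subunit gp91phox, is X-linked and was at 3.16 ± 0.311 CPM in the WT libraries and 3.62 ± 0.567 CPM in the KO libraries (SD, n = 3). *Pf4*, a chemokine of platelets and resident macrophages, had 18 counts in WT c and 30 to 58 in the other libraries, and its log2 fold change was -0.20 with a 95% interval from -0.75 to 0.35.

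None of the 4 Fc receptor genes and signalling adaptors passed the test. *Tyrobp*, which encodes the adaptor DAP12, was at 1.91, 2.04 and 2.30 CPM in the WT libraries and 0.848, 2.02 and 1.40 CPM in the KO libraries. KO a was the lowest, KO b lay among the WT libraries, and the log2 fold change was -0.57 (adjusted p = 0.108, edgeR). It depended on single KO libraries, at -0.30 without KO a (adjusted p = 0.456) and -0.89 without KO b (adjusted p = 0.0306), and DESeq2 gave an adjusted p of 0.239. *Fcer1g*, the common Fc receptor gamma chain, was at 2.01 ± 0.173 CPM in the WT libraries and 1.97 ± 0.364 CPM in the KO libraries (SD, n = 3). The activating receptor gene *Fcgr3* and the inhibitory *Fcgr2b* had log2 fold changes of 0.12 and 0.15, with 95% intervals from -0.28 to 0.51 and from -0.51 to 0.80. These 2 receptors are related in sequence and reads may have been split between them.

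The genes shared by most leukocytes gave 0 calls among the 5 with a row. *Ptprc* was at 4.46, 3.37 and 2.96 CPM in the WT libraries and 3.55, 4.55 and 3.49 CPM in the KO libraries, with overlap of the groups. Its log2 fold change was 0.09, with a 95% interval from -0.28 to 0.46. *Itgb2*, the beta chain of the leukocyte integrins, was at 2.08, 2.14 and 2.10 CPM in the WT libraries and 0.795, 1.45 and 1.72 CPM in the KO libraries. No KO library reached the WT range, and the log2 fold change of -0.68 lay next to the threshold with an adjusted p of 0.0504 (edgeR). *Itgb2* was called in 4 of 14 alternative settings, and its adjusted p ranged from 0.0246 under edgeR's exact test to 0.138 under DESeq2 and 0.275 without KO a. Without KO a the log2 fold change was -0.40, and without KO c it was -0.94. *Itgam*, the alpha chain that pairs with it in CD11b/CD18, had a log2 fold change of -0.26 (95% interval -0.69 to 0.16). *Cd53*, a tetraspanin, and *Coro1a*, an actin regulator, had values of -0.23 and -0.18, and the groups overlapped.

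Antigen presentation was represented by *Cd74* alone, the invariant chain of class II molecules, with 9 to 26 counts per library. It was at 0.9496 ± 0.406 CPM in the WT libraries and 1.11 ± 0.249 CPM in the KO libraries (SD, n = 3). *Ms4a6c* had 19 to 50 counts per library, a log2 fold change of -0.43 and a 95% interval from -0.997 to 0.13, and its reads may be shared with related genes of the *Ms4a6* group.

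How small a change could have been seen varied with the counts. The half-width of the 95% interval of the log2 fold change was 0.15 for *Mrc1* and 0.76 for *Cd14*, with a median of 0.38. Of the 26 genes that were not called, 14 had an interval within a change of 1.5-fold in either direction. The intervals of 8 genes reached a decrease of 1.5-fold or more and those of 4 genes an increase of that size, which these counts therefore leave possible.

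The growth factors and chemoattractants that act on macrophages were taken as a further list, of which 9 of 20 genes have a row. *Cxcl1*, *Ccl2*, *Csf1* and *Tgfb1* were lower and *Cxcl12* higher at an adjusted p under 0.05 (edgeR). Of all genes tested, 15.7% were lower and 14.6% higher. *Tgfb1* lost its call under DESeq2 and without WT c, KO a or KO b, and *Cxcl12* without WT b, KO b or KO c. *Csf1*, the ligand of CSF1R, was at 27.2 ± 2.35 CPM in the WT libraries and 22.2 ± 1.79 CPM in the KO libraries (SD, n = 3), a log2 fold change of -0.29 (adjusted p = 0.00450). *Cxcl1*, which draws neutrophils, was at 2.73 ± 0.543 CPM in the WT libraries (SD, n = 3) and had 2 counts in 1 KO library and 0 in the other two. *Ccl2*, which draws monocytes, was at 2.38 ± 0.503 and 1.05 ± 0.460 CPM (SD, n = 3). *Cxcl12*, a chemokine that retains and guides blood cells, was at 97.2 ± 1.46 and 106.1 ± 0.976 CPM (SD, n = 3).

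Of 37 further macrophage genes, 28 were tested. Of the 28, 6 were lower and 4 higher, where 15.7% of all genes tested were lower and 14.6% higher. Before adjustment, 11 of the 28 (39.3%) had a p under 0.05 (edgeR), against 40.7% of all genes tested. Over the alternatives 2 to 6 of the 28 were lower, with 2 under DESeq2 and without KO b and 3 without WT b. In each alternative 4 were higher. *Tlr4*, the receptor that CD14 serves, was at 21.9 ± 2.83 CPM in the WT libraries and 16.9 ± 0.196 CPM in the KO libraries (SD, n = 3), and *Axl*, a receptor for dying cells, at 87.9 ± 0.395 and 73.2 ± 1.30 CPM. The higher genes included *Stab1* (110.1 ± 4.95 in WT and 131 ± 5.00 CPM in KO), *Gas6* and *Sirpa* (SD, n = 3). Many of these genes, such as *Stab1*, *Axl* and *Gas6*, are also made by endothelial cells or fibroblasts. Among 21 tested genes of leukocyte signalling and cytoskeleton, 0 were lower and 1, *Fermt3*, was higher, and 5, counting both directions, had an unadjusted p under 0.05 (23.8%, against 40.7% of all genes tested). In this list 2 genes were lower without WT c and 0 in the other settings, and *Fermt3* lost its call without KO a. Of 19 lysosomal genes that many cells use, 4 were lower and 1 was higher, against 15.7% and 14.6% of all genes tested. Over the alternatives 2 to 6 of the 19 were lower and 1 to 3 higher. There were 2 lower under DESeq2 and without WT a, KO a or KO c, 6 lower and 2 higher without WT c, 2 higher without WT b and under edgeR's exact test, and 3 higher without KO b. The 2 with the smallest adjusted p were called in all 14 settings, with *Ctsl* at 102 ± 3.87 CPM in the WT libraries and 87.0 ± 1.79 CPM in the KO libraries and *Ctsa* at 93.2 ± 3.20 and 113.1 ± 2.66 CPM (SD, n = 3).

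Many markers of other blood cells have no row. None of 13 T and NK cell genes has a row. Of 14 neutrophil genes 5 have one, and their summed level was 8.73 to 9.53 CPM in the WT libraries and 6.23 to 6.62 CPM in KO libraries. All 5 had a fold change below 0, as did 6853 of the 13804 genes tested. *S100a9* alone passed the test, at 3.19 ± 0.335 CPM in the WT libraries and 1.62 ± 0.162 CPM in the KO libraries (SD, n = 3). Of 8 mast cell genes 5 have a row, and the mast cell proteases *Cpa3* and *Tpsb2* rose by 0.54 and 0.49 on the log2 scale (adjusted p = 0.0130 and 0.0274, edgeR). *Cpa3* was called in 12 of 14 settings and *Tpsb2* in 9, and without KO c neither was. The B cell list was represented by *Ebf1* alone, which stromal cells also express and which was lower. Of 4 platelet and megakaryocyte genes with a row *Gp1ba* was higher. Of 4 erythroid genes *Alas2*, which is X-linked, was higher and *Slc4a1* lower. Beside the calls in these blood cell lists, 15.7% of all genes tested were lower and 14.6% higher. In the other cells of the heart, the summed level of the marker list in KO was 0.911 of that in WT for cardiomyocytes, 0.969 for endothelial cells and 0.924 for fibroblasts. Of these lists 5 of 8, 3 of 8 and 3 of 7 genes were lower, where 15.7% of all genes tested were lower. Higher were 2, 1 and 0 genes, where 14.6% of all genes tested were higher. The lower counts ranged over the alternatives from 4 to 6, 2 to 3 and 1 to 4, and the higher count of the cardiomyocyte list from 0 to 2. The part that these shifts have in the values of the leukocyte genes was not tested.

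**Figure D4:**
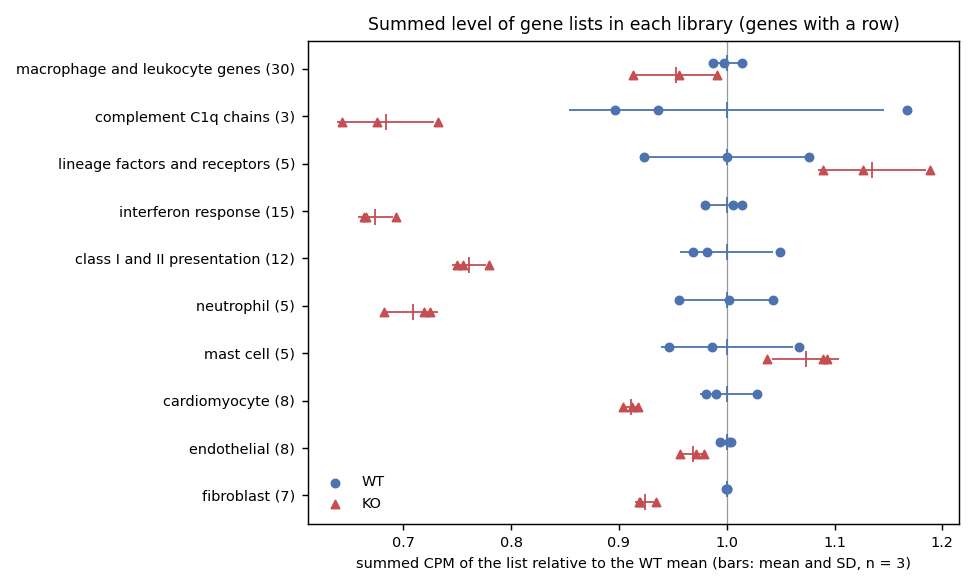
Summed CPM of selected gene lists in each library divided by the mean of the WT libraries (horizontal axis). The other lists of the text are not drawn. The number of genes that have a row is in parentheses. WT libraries are blue circles and KO libraries red triangles, with bars at the mean and SD (n = 3). The KO libraries of the C1q chains lie below all WT libraries, while those of the lineage genes lie above them and the sum of the 30 genes lies near 1.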

How the data were processed

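RNA-seq of hearts at E18.5 was analysed for 3 WT and 3 *Pkm1*-KO libraries. The authors removed ribosomal RNA, used Hisat2 for the alignment of paired-end reads and StringTie for assembly, and the submitters' processing notes add cutadapt 1.18 and the build mm10. The counting program and its strand setting are not given in the sources used here. What the authors deposited is a table of raw counts by gene symbol. Columns with the results of their own edgeR comparison stand in the same table and were not used.

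Counts were fitted in R 4.3.3 with edgeR 4.0.16 (filterByExpr, 13804 genes kept, TMM scaling, quasi-likelihood test on genotype alone, Benjamini-Hochberg adjustment over all genes, threshold 0.05). The tests were tested on simulated data. Summed levels are descriptions without a test. Gene positions and exon lengths came from GENCODE vM21 (GRCm38), and promoters from RefSeq.

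The gene list, the role groups and the further lists were chosen with earlier results of these data known. Values per library were planned for genes past the threshold and for identity genes fixed by name. From a further list, values were planned for at most 5 genes with the smallest adjusted p. The text goes beyond this plan, with libraries of *C1qb*, *F13a1*, *Tyrobp* and *Itgb2*. It also gives values of uncalled genes of further lists, such as *Ifit2*, *Irf9*, *H2-Eb1*, *H2-DMa*, *Tap2* and *Nlrc5*. The labels call the libraries replicates, and the study calls them biological. Alternatives were RLE size factors, DESeq2 1.42.0, edgeR's exact test, voom of limma 3.58.1, other filters, genes on X and Y left out and each library left out. 1 gene of the interferon response list is not reported here by name.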

Additional observations from a re-analysis of the deposited data

How the results depend on the processing

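No paired analysis was possible because nothing in the table's column names numbers the replicates. The sum of WT a with WT b as a single library, and the counts and calls of the further lists under each setting and the levels per kilobase in each library, were chosen after seeing the data. Over 14 settings, *C1qa*, *C1qc* and *Ctss* kept their direction and call, as did *Cd14* in the 13 that kept it, since it has fewer than 10 counts in KO libraries. The number of lower genes was 4 to 5 and that of higher genes 0 to 1 with 1 library left out. *Mrc1* made 1 higher gene under edgeR's exact test, and *F13a1* without WT c or KO a. The ratio of the summed levels per kilobase of exon was -0.209 on the log2 scale, against -0.069 for the plain sum. With 1 library left out the plain sum gave -0.0976 to -0.0390. Of 416 values of single genes, 396 kept direction and side of the threshold, 9 passed it and 11 reversed without a call, all with 1 library left out: *Folr2* (-0.206 to 0.188), *Cd68* (-0.119 to 0.0394), *Fcgr3* (-0.00413 to 0.282), *Fcer1g* (-0.174 to 0.0832), *Csf1r* (-0.00837 to 0.305), *Pf4* (-0.497 to 0.0620) and *Ptprc* (-0.0352 to 0.267). The cause was not tested. Depth limits genes with few counts, such as *Spi1*, *Cd74* and *Fcgr2b*.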

Other observations

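The interferon response genes, which most cell types can switch on, were mostly lower in KO hearts. Of 16 listed genes 15 were tested, all 15 had a fold change below 0, and 13 were lower in KO hearts at an adjusted p under 0.05 (edgeR), where 15.7% of all genes tested were lower. *Irf7*, which amplifies interferon production, fell from 12.6 ± 1.51 to 5.78 ± 0.572 CPM (SD, n = 3). The antiviral genes *Rsad2* and *Oasl2* had log2 fold changes of -1.22 and -1.05. *Ifit2* (-0.20) and *Irf9* (-0.17) did not pass. The median log2 fold change of the 15 genes was -0.84, against -0.11 for the macrophage and leukocyte genes. From 13 to 14 genes were lower under every setting, and 14 without WT c.

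Of 12 tested genes of class I and class II presentation, 6 were lower and 2 were higher. Of all genes tested, 15.7% were lower and 14.6% higher. *B2m*, the light chain of class I molecules, fell from 80.7 ± 6.00 to 53.3 ± 4.26 CPM (SD, n = 3), or by 0.59 on the log2 scale (adjusted p = 8.94e-09, edgeR). The class I genes *H2-K1* and *H2-D1*, the peptide transporter *Tap1*, *Tapbp* and the immunoproteasome subunit *Psmb8* also fell, and *Tapbp* lost its call under DESeq2 and without WT b, KO b or KO c. The class II gene *H2-Ab1* was at 0.579, 0.408 and 0.723 CPM in WT and 1.80, 1.89 and 1.99 CPM in KO libraries. This was a log2 fold change of 1.75 (adjusted p = 7.98e-05, edgeR). *H2-Ab1* was called in the 13 settings that kept it, and was removed by the filter of at least 10 counts in every library. *Ciita*, the activator of class II genes, had a log2 fold change of 0.60 (adjusted p = 0.00979), and lost its call without KO c. No test of a difference between the classes was run. *H2-Eb1* (0.40), *H2-DMa* (0.02), *Tap2* (-0.30) and *Nlrc5* (-0.78), a class I activator, did not pass. Reads of related H2 genes may have been split between them, so their levels are uncertain. Under the alternatives 5 to 7 genes were lower and 1 to 2 higher.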
